A study of Xenopus laevis with 30 samples.

Results

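The ventral side of a Xenopus laevis gastrula, separated from the dorsal side before gastrulation, was compared with the undivided embryo at late gastrula. The comparison set 3 libraries of ventral half-embryos at stage 12 against 3 libraries of whole embryos at the same stage, 6 of the 30 libraries of the series, over all 15596 genes listed for that stage. All embryos of this African clawed frog were of the Nasco strain, with no genetic change named in the labels. Per the labels' protocols, embryos were raised in diluted Marc's Modified Ringers, and the ventral, dorsal, left and right half-embryos were cut at stage 8, the blastula, in Barth's solution and kept in a dilution of it. Cutting and change of medium therefore cannot be told apart in any comparison of a half-embryo with whole embryos. Each whole-embryo library is named in its label as the control of the same-numbered half-embryos, and the 3 differences within a number were used as pairs. The sources used here do not give how the ventral side was recognised, how many embryos went into a library, or whether replicates came from separate clutches. The p-values therefore measure the spread between these libraries, which may be partly technical.

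At gastrulation the dorsal lip, the Spemann organizer, secretes antagonists of bone morphogenetic proteins (BMPs) such as chordin, noggin and follistatin, and antagonists of Wnt and Nodal such as dickkopf, Frzb and cerberus. Chordin binds BMPs and carries them to the ventral side, where Tolloid proteases cleave it and release the BMP, which signals through Smad1. The ventral centre in turn makes feedback proteins under BMP control, among them sizzled, which inhibits Tolloid, the pseudoreceptor Bambi and crossveinless-2. High BMP signalling gives ventral mesoderm and epidermis, and low BMP signalling gives notochord, muscle and neural plate. A ventral fragment without an organizer develops into a belly piece with no axis, whereas a dorsal fragment can restore the pattern.

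Most organizer genes, including chordin, and 29 of 54 neural plate genes were lower in ventral half-embryos than in whole embryos, while 16 of 31 BMP targets, the feedback gene szl.L and caudal genes such as cdx2.L were higher. On log2(RPKM + 1), a scale that understates the change of genes at low levels, 1735 of 15596 genes (11.1%) passed an adjusted p of 0.05 (limma, Benjamini-Hochberg), of which 751 (4.82%) were higher in ventral half-embryos and 984 (6.31%) lower. These genes are referred to as called. The shares over all genes are the background for every count of called list members below. Differences are ventral minus whole with their standard error unless another pair is named, RPKM values are in the order of libraries 1, 2 and 3, and levels of different genes are compared on no scale. A change of at least 2-fold was reached by 274 of the higher and 421 of the lower genes, and the median over all genes was -0.0364. The listed genes held 2091772, 2792655 and 2920488 reads in the whole embryos and 2526910, 3433738 and 5071874 in the ventral half-embryos, with a median of 58 reads per gene and library, so that whole embryos were the less deeply read group. The number of calls depended on single libraries. It was 207 higher and 303 lower without ventral library 1, 272 and 470 without ventral library 3, 380 and 506 without whole-embryo library 1, and 304 and 422 without whole-embryo library 3. Calls kept whichever 1 of the 6 libraries was left out numbered 153 higher and 264 lower, and the fit without the replicate block made 226 and 392 calls.

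**Figure D1:**
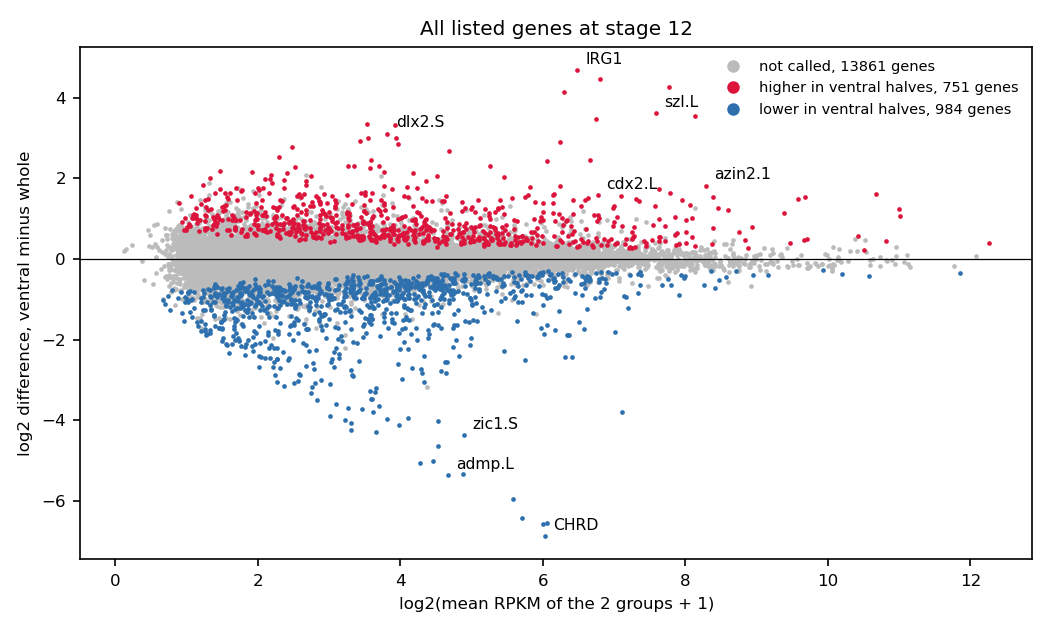
Log2 difference between ventral half-embryos and whole embryos (vertical axis) against the log2 mean RPKM of both groups (horizontal axis), 1 point per listed gene at stage 12, with called genes in red (higher) and blue (lower). The lower genes reach further from 0 than the higher ones, down to -6.86 for a chordin model against 4.68 for an IRG1 model.

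Most organizer genes fell in ventral half-embryos, several of them to near 0. Of 38 measured organizer genes, counted by copy, 0 were called higher and 33 lower, with a median of -2.71 against -0.0364 over all genes. Xenopus laevis is tetraploid in origin, and most genes have 2 copies, marked .L and .S. Chordin was listed as 3 gene models whose closest human protein is CHRD. The model Xelaev18027420m was at 124, 100.2 and 162 RPKM in the whole embryos and 0, 0.247 and 0.0557 RPKM in the ventral half-embryos (CHRD -6.86 ± 0.69, adjusted p = 0.000433). Every ventral library lay at or near 0 and the lowest whole-embryo library at 100.2 RPKM. The other chordin models, Xelaev18029538m and Xelaev18027421m, fell by as much (CHRD -6.53 ± 0.77 and -6.43 ± 0.79). The BMP-family ligand admp.L, which is made in the organizer itself, was at 30.3, 52.8 and 63.2 RPKM in the whole embryos and 0.175, 0.128 and 0.174 RPKM in the ventral half-embryos (-5.36 ± 0.90, adjusted p = 0.00428). Goosecoid, the homeodomain repressor of the organizer, was listed at 0 in all ventral libraries as gsc.L, against 2.93, 5.85 and 13.8 RPKM in whole embryos (-2.88 ± 0.64, adjusted p = 0.0159), a fitted difference that is no bound. The notochord homeobox gene not.S was at 30.1, 40.6 and 58.0 RPKM in the whole embryos and 2.98, 5.73 and 6.95 RPKM in the ventral half-embryos (-2.83 ± 0.50, adjusted p = 0.0057), so a low level remained in each ventral library.

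Head organizer genes went the same way. cer1.S, a copy of cerberus, was at 158, 235 and 367 RPKM in the whole embryos and 5.62, 40.0 and 18.2 RPKM in the ventral half-embryos (-3.79 ± 0.51, adjusted p = 0.00158). The groups did not overlap, yet ventral library 2 kept several times the level of ventral library 1. Dickkopf-1, an inhibitor of the Wnt co-receptor, fell as dkk1.S from 11.3, 16.0 and 23.4 RPKM to 0.312, 0.229 and 0.465 RPKM (-3.69 ± 0.57, adjusted p = 0.0029). The Otx family gene crx.L, of anterior neuroectoderm and head mesoderm, was at 90.6, 128 and 160.1 RPKM in the whole embryos and 0, 0.760 and 0.257 RPKM in the ventral half-embryos (-6.57 ± 0.99, adjusted p = 0.00262). The forkhead gene foxa4.L, of the notochord and floor plate, was reduced but not lost, at 150.5, 220.3 and 241 RPKM in the whole embryos and 80.5, 107 and 72.8 RPKM in the ventral half-embryos (-1.22 ± 0.21, adjusted p = 0.00447). The secreted Wnt antagonist frzb.L fell from 67.6, 52.7 and 94.9 RPKM to 8.41, 16.7 and 17.5 RPKM (-2.28 ± 0.42, adjusted p = 0.00657), while its other copy frzb.S stood at 57.4, 51.6 and 72.3 RPKM in the whole embryos and 56.1, 55.1 and 64.9 RPKM in the ventral half-embryos (-0.03 ± 0.14, adjusted p = 0.914). In frzb.S the libraries of the groups overlapped; whether the copies differ in response was not tested. The 5 organizer genes that were not called were frzb.S, foxa2.L (-0.15 ± 0.26), lefty.L (0.24 ± 0.32), lefty.S (-0.07 ± 0.30) and a HESX1 model (-1.47 ± 0.74). Of these 33 calls, 21 were kept whichever 1 of the 6 libraries was left out, and the fit without the replicate block made 0 higher and 25 lower. Leaving out 1 library ended the call of gsc.L without ventral library 1, ventral library 3 or whole-embryo library 3 (adjusted p = 0.0655 to 0.0717).

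**Figure D2:**
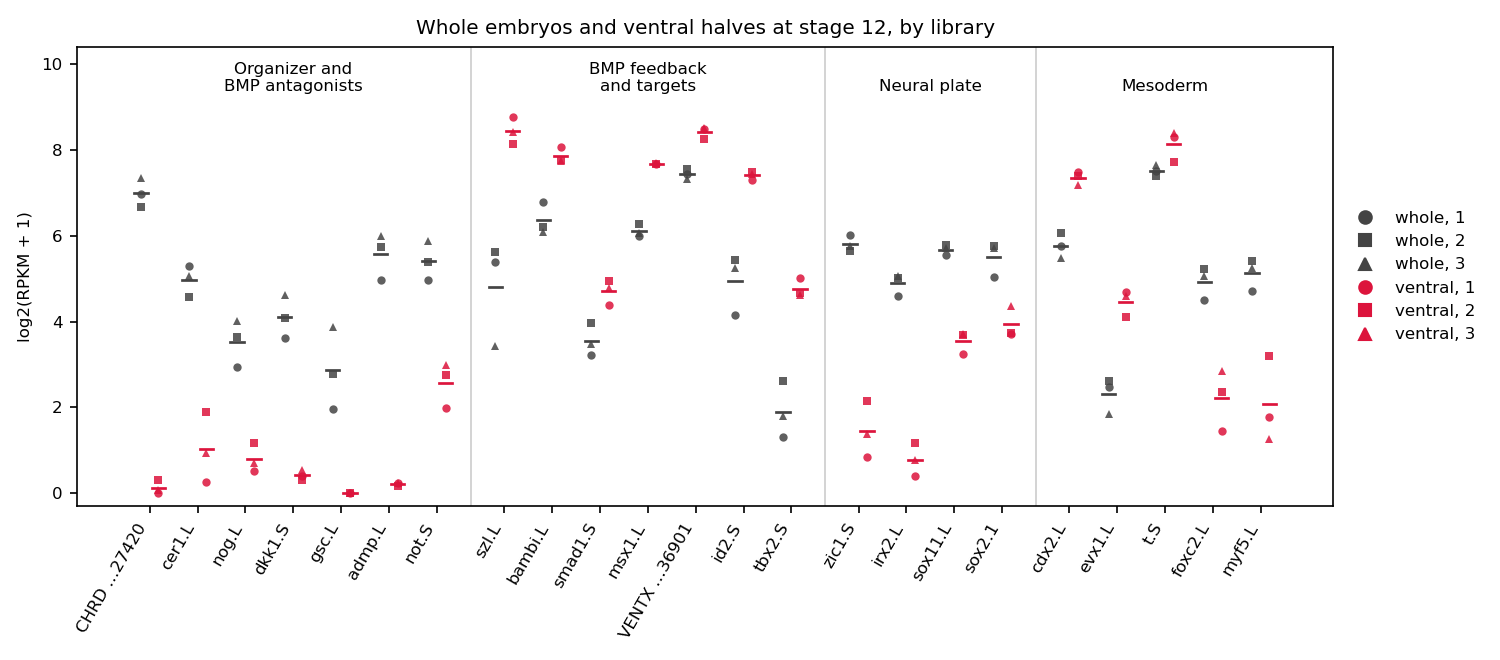
log2(RPKM + 1) of 23 genes in the 3 whole-embryo libraries (grey) and the 3 ventral libraries (red) at stage 12, with marker shape giving the library number and a bar the mean. Chordin, goosecoid and admp sit at or near 0 in all ventral libraries, and for szl.L the whole-embryo library 3 lies below the other two.

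The BMP network shifted by role. Of 83 measured genes, 24 were called higher and 19 lower. Among 12 secreted antagonists 1 was higher and 9 were lower, and among 31 target genes 16 were higher and 3 lower. Beyond the organizer antagonists, the follistatin-like gene fstl1.S fell from 13.0, 21.8 and 15.3 RPKM to 3.02, 3.48 and 4.07 RPKM (-1.94 ± 0.30, adjusted p = 0.00271). Noggin, which binds BMPs directly, fell as nog.L from 6.67, 11.5 and 15.1 RPKM to 0.426, 1.25 and 0.635 RPKM (-2.73 ± 0.51, adjusted p = 0.00743). The antagonist that rose was bmper.L, crossveinless-2, a BMP-binding protein of the ventral centre, at 1.23, 3.41 and 1.38 RPKM in the whole embryos and 9.88, 8.01 and 5.201 RPKM in the ventral half-embryos (1.57 ± 0.26, adjusted p = 0.00418).

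Sizzled, the Tolloid inhibitor of the ventral centre, rose the furthest of the BMP genes. szl.L was at 40.9, 48.0 and 9.78 RPKM in the whole embryos and 436, 279 and 338 RPKM in the ventral half-embryos (3.62 ± 0.57, adjusted p = 0.00295). Every ventral library was several times above every whole-embryo library, and whole-embryo library 3 was low, which makes pair 3 the largest. szl.S had the same pattern, at 23.4, 33.1 and 4.84 RPKM in the whole embryos and 229, 128 and 222 RPKM in the ventral half-embryos (3.47 ± 0.61, adjusted p = 0.00539), and without the replicate block its adjusted p was 0.0545. Of the related secreted Frizzled-like genes, sfrp2.L fell from 19.6, 18.2 and 20.9 RPKM to 0.388, 0.855 and 0.514 RPKM (-3.71 ± 0.57, adjusted p = 0.00271). Both SFRP5 models were listed at 0 in all ventral libraries, against 15.7, 17.4 and 20.3 RPKM for SFRP5 (Xelaev18025927m) and 11.3, 11.1 and 31.2 RPKM for SFRP5 (Xelaev18024021m) in whole embryos. For SFRP5 (Xelaev18025927m) the pair differences were -4.06, -4.21 and -4.41, close together beside a standard error of 0.855. The fit also took in the left half-embryos, at a mean of 15.28 RPKM with a standard deviation of 15.53. The pseudoreceptor gene bambi.L was at 109.5, 72.5 and 67.4 RPKM in the whole embryos and 268, 216 and 213 RPKM in the ventral half-embryos (1.497 ± 0.29, adjusted p = 0.00925). Among 8 ligands, admp and bmp2.S (-1.34 ± 0.29, adjusted p = 0.0139) were lower, and the BMP7 model Xelaev18018155m was higher, at 124, 136 and 139.7 RPKM in the whole embryos and 221, 236 and 262 RPKM in the ventral half-embryos (0.84 ± 0.21, adjusted p = 0.0277). The other BMP7 model, Xelaev18020685m, was not called (BMP7 0.06 ± 0.27, adjusted p = 0.907). bmp4.L (0.35 ± 0.14, adjusted p = 0.113) and bmp4.S (0.20 ± 0.13, adjusted p = 0.347), the ventral ligand, were not called against whole embryos. Among 7 Smad genes the copies of smad1, the transducer of BMP signals, were called: smad1.S was at 8.30, 14.7 and 10.2 RPKM in the whole embryos and 19.9, 29.8 and 26.6 RPKM in the ventral half-embryos (1.15 ± 0.13, adjusted p = 0.0007) and smad1.L changed by 1.17 ± 0.24. Of 9 receptors 1 was called, bmpr1b.S, which fell (-1.49 ± 0.30, adjusted p = 0.00995). That share of receptors, 11.1%, is no higher than the 11.1% over all genes. Dropping a single library removed the call of SFRP5 (Xelaev18025927m) without ventral library 1 (adjusted p = 0.0613), of SFRP5 (Xelaev18024021m) without ventral library 1, ventral library 3 or whole-embryo library 3 (adjusted p = 0.0511 to 0.0544), of bmp2.S without ventral library 1, ventral library 3 or whole-embryo library 3 (adjusted p = 0.0617 to 0.0674), of BMP7 without ventral library 1, ventral library 2, ventral library 3, whole-embryo library 2 or whole-embryo library 3 (adjusted p = 0.0528 to 0.134), of smad1.L without ventral library 1 or whole-embryo library 3 (adjusted p = 0.0573 to 0.0701), of bmpr1b.S without ventral library 1 or ventral library 3 (adjusted p = 0.0511 to 0.0598).

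Of the 31 BMP targets, 16 were called higher. The homeobox gene msx1.L was at 62.5, 75.9 and 66.0 RPKM in the whole embryos and 203, 203 and 205 RPKM in the ventral half-embryos (1.57 ± 0.28, adjusted p = 0.00619), with ventral libraries within a narrow band. The ventral homeobox repressors of the Vent family, listed as models nearest to human VENTX, rose by less, with VENTX (Xelaev18036901m) at 173, 187 and 159 RPKM in the whole embryos and 357, 307 and 362 RPKM in the ventral half-embryos (0.98 ± 0.11, adjusted p = 0.0007). The T-box repressor tbx2.S went from 1.47, 5.14 and 2.46 RPKM to 31.5, 24.3 and 23.4 RPKM (2.86 ± 0.44, adjusted p = 0.00271), and the TBX3 model Xelaev18010379m from 1.89, 4.54 and 1.45 RPKM to 29.5, 25.2 and 24.0 RPKM (TBX3 2.997 ± 0.44, adjusted p = 0.00219). In both genes no library of one group reached into the other. id2.S, an inhibitor of basic helix-loop-helix factors, was at 16.8, 42.6 and 37.0 RPKM in the whole embryos and 157, 179 and 172 RPKM in the ventral half-embryos (2.46 ± 0.41, adjusted p = 0.00418). The 3 lower members of the target list were HES1-type genes, which are targets of several pathways: HES1 (Xelaev18019219m) fell from 21.99, 42.5 and 60.5 RPKM to 0, 0 and 0.878 RPKM (-5 ± 0.94, adjusted p = 0.00767). Whichever 1 of the 6 libraries was left out, 25 of the 43 calls were kept; the fit without the replicate block made 16 higher and 17 lower.

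Many neural plate genes fell, and a smaller number rose. Of 54 measured genes 8 were called higher and 29 lower, with a median of -1.11. Zic1, a zinc finger factor at the base of the neural programme, was at 63.9, 49.3 and 53.5 RPKM in the whole embryos and 0.799, 3.403 and 1.59 RPKM in the ventral half-embryos as zic1.S (-4.36 ± 0.41, adjusted p = 0.000433). Iroquois genes pattern the plate, and irx2.L fell from 23.2, 31.2 and 32.5 RPKM to 0.314, 1.27 and 0.702 RPKM (-4.11 ± 0.41, adjusted p = 0.000433), irx1.L by 3.96 and irx3.S by 3.15 on the log2 scale. In each of these genes the lowest whole-embryo library was above every ventral library. Several SoxB1 and SoxC genes of neural precursors fell without reaching 0. sox11.L was at 45.6, 54.0 and 51.5 RPKM in the whole embryos and 8.43, 11.96 and 11.99 RPKM in the ventral half-embryos (-2.13 ± 0.26, adjusted p = 0.00112), and sox2.1 at 31.7, 53.5 and 51.8 RPKM in the whole embryos and 12.1, 12.37 and 19.4 RPKM in the ventral half-embryos (-1.57 ± 0.31, adjusted p = 0.0104). Of the SOX3 models, Xelaev18042169m went from 133, 114 and 114 RPKM to 63.1, 55.7 and 76.1 RPKM (SOX3 -0.89 ± 0.15, adjusted p = 0.00382), and Xelaev18038842m was not called (SOX3 -0.35 ± 0.14, adjusted p = 0.134), with a higher ventral value in pair 3. All but 1 of the 8 members that rose were Hairy/E(spl) genes nearest to human HES5, which are Notch targets and not restricted to the plate: HES5 (Xelaev18035791m) was at 15.7, 13.4 and 24.1 RPKM in the whole embryos and 52.8, 34.1 and 46.6 RPKM in the ventral half-embryos (1.3 ± 0.21, adjusted p = 0.0034). The other was the tubulin gene tubb2b.L (1.102 ± 0.26, adjusted p = 0.021). The calls kept whichever 1 of the 6 libraries was left out numbered 19, and those made without the replicate block 4 higher and 23 lower. A single omitted library cost the call of sox2.1 without ventral library 1 (adjusted p = 0.0565), of tubb2b.L without ventral library 1, ventral library 3 or whole-embryo library 3 (adjusted p = 0.0562 to 0.0947).

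The neural border, which gives rise to neural crest and placodes, had more lower than higher calls. Of 19 measured genes 2 were called higher and 10 lower. The placode gene eya1.1 fell from 5.63, 4.29 and 5.58 RPKM to 0.743, 0.709 and 0.701 RPKM (-1.84 ± 0.27, adjusted p = 0.00225), while eya1.S was not called (-0.10 ± 0.20, adjusted p = 0.785). The crest specifiers foxd3.L (-2.01 ± 0.37, adjusted p = 0.00657) and twist1.L (-2.45 ± 0.43, adjusted p = 0.00558) were lower in every pair. The SoxE genes sox9.S, at 2.77, 3.18 and 2.34 RPKM in the whole embryos and 11.5, 5.47 and 8.88 RPKM in the ventral half-embryos (1.31 ± 0.25, adjusted p = 0.00869), and sox8.L (1.41 ± 0.30, adjusted p = 0.013) were the higher ones. The other sox9 entry, sox9.1, was not called (-0.26 ± 0.26, adjusted p = 0.544). Of these 12 calls, 7 were kept whichever 1 of the 6 libraries was left out, and the fit without the replicate block made 2 higher and 8 lower. Leaving out 1 library ended the call of sox9.S without ventral library 1 (adjusted p = 0.0559), of sox8.L without ventral library 1 or ventral library 3 (adjusted p = 0.0617 to 0.0662).

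Genes of posterior and ventral mesoderm were more often called higher than lower. Of 41 measured genes, some of them also BMP targets, 14 were called higher and 4 lower, with a median of 0.62. Caudal genes, which activate the posterior Hox clusters, were at 53.4, 65.5 and 44.0 RPKM in the whole embryos and 178, 168 and 144 RPKM in the ventral half-embryos for cdx2.L (1.58 ± 0.23, adjusted p = 0.002) and at 43.5, 68.6 and 41.0 RPKM in the whole embryos and 158, 158 and 121 RPKM in the ventral half-embryos for cdx4.S (1.52 ± 0.22, adjusted p = 0.0021). The homeobox gene evx1.L, of the ventral and posterior marginal zone, went from 4.53, 5.15 and 2.59 RPKM to 24.9, 16.1 and 23.1 RPKM (2.15 ± 0.30, adjusted p = 0.00167). Brachyury, the T-box factor of all early mesoderm, rose less: t.S was at 180.1, 166 and 198 RPKM in the whole embryos and 315, 212 and 336 RPKM in the ventral half-embryos (0.64 ± 0.12, adjusted p = 0.00625). The TBX6 model Xelaev18010507m was at 86.7, 112 and 119 RPKM in the whole embryos and 309, 257 and 436 RPKM in the ventral half-embryos (TBX6 1.63 ± 0.21, adjusted p = 0.00122). The groups did not overlap in any of these 5 genes. Here, as for other called examples, the genes were chosen from those called, so a lack of overlap is no further support. Of the other 4 TBX6 models, Xelaev18001339m fell (TBX6 -2.17 ± 0.41, adjusted p = 0.00767) and 3 were not called. wnt11.L, a copy of a Wnt ligand gene, fell from 5.89, 4.56 and 4.36 RPKM to 0, 0.495 and 0 RPKM (-2.37 ± 0.27, adjusted p = 0.0007), while wnt11b.L rose from 81.7, 124 and 62.2 RPKM to 167, 165 and 159 RPKM (0.92 ± 0.16, adjusted p = 0.00511). Whichever 1 of the 6 libraries was left out, 12 of the 18 calls were kept; the fit without the replicate block made 12 higher and 2 lower. Hox genes, which set positional identity along the axis, had few reads, except hoxd1.L and hoxd1.S (whole-embryo means 58.4 and 54.3 RPKM). Of 21 measured Hox genes 6 were called higher and 0 lower, and 20 had a positive difference, with a median of 0.88. hoxa9.L was at 0.263, 1.38 and 0.189 RPKM in the whole embryos and 5.46, 2.25 and 4.997 RPKM in the ventral half-embryos (1.71 ± 0.34, adjusted p = 0.00995). No Hox call was kept whichever 1 library was left out (0 of 6). Dropping a single library removed the call of hoxa9.L without ventral library 1, ventral library 3 or whole-embryo library 3 (adjusted p = 0.0504 to 0.0587).

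Several paraxial mesoderm genes, which mark the precursors of somites and muscle, fell. Of 25 measured genes 4 were called higher and 10 lower, with a median of -0.70. The forkhead gene foxc2.L was at 21.5, 36.2 and 32.2 RPKM in the whole embryos and 1.72, 4.14 and 6.15 RPKM in the ventral half-embryos (-2.71 ± 0.28, adjusted p = 0.000462). Myf5, a muscle determination factor, went from 25.3, 41.4 and 36.8 RPKM to 2.45, 8.22 and 1.39 RPKM as myf5.L (-3.04 ± 0.42, adjusted p = 0.00183), and MyoD from 11.2, 14.6 and 13.7 RPKM to 2.19, 4.43 and 2.04 RPKM as myod1.L (-1.91 ± 0.25, adjusted p = 0.00134). Its other copy, myod1.S, was at 34.0, 64.0 and 51.9 RPKM in the whole embryos and 24.97, 28.2 and 36.1 RPKM in the ventral half-embryos (-0.70 ± 0.26, adjusted p = 0.107) and was not called. The Notch ligand gene dll1.L, of the unsegmented mesoderm, rose, at 19.4, 29.0 and 24.6 RPKM in the whole embryos and 63.4, 53.2 and 63.0 RPKM in the ventral half-embryos (1.28 ± 0.18, adjusted p = 0.0021). The calls kept whichever 1 of the 6 libraries was left out numbered 7, and those made without the replicate block 4 higher and 9 lower. Of 15 lateral plate and blood genes 4 were called higher and 2 lower, 40% beside 11.1% of all genes. foxf1.L, a forkhead gene of lateral plate mesoderm, was at 1.75, 2.03 and 1.03 RPKM in the whole embryos and 9.14, 10.9 and 9.35 RPKM in the ventral half-embryos (2.07 ± 0.30, adjusted p = 0.00212), and its call was the 1 in this list kept whichever library was left out.

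Endoderm genes split. Of 31 measured genes 7 were called higher and 11 lower. Of 8 Mix-type homeobox genes, early targets of Nodal signalling in mesendoderm, 5 were called higher and 3 were not called: mixer.S (0.49 ± 0.26, adjusted p = 0.239), MIXL1 (Xelaev18028631m) (0.74 ± 0.30, adjusted p = 0.137) and MIXL1 (Xelaev18028629m) (0.34 ± 0.34, adjusted p = 0.548). mix1.L, with the largest difference of these, was at 16.4, 7.60 and 11.5 RPKM in the whole embryos and 61.2, 38.7 and 89.5 RPKM in the ventral half-embryos (2.30 ± 0.37, adjusted p = 0.00368), and the MIXL1 model Xelaev18026295m at 2.99, 1.74 and 2.38 RPKM in the whole embryos and 12.7, 12.3 and 22.9 RPKM in the ventral half-embryos (MIXL1 2.29 ± 0.34, adjusted p = 0.00219). In both, every ventral library was above every whole-embryo library. The transcription factor gene gata4.L fell, at 14.4, 20.1 and 28.0 RPKM in the whole embryos and 4.43, 9.08 and 6.82 RPKM in the ventral half-embryos (-1.49 ± 0.26, adjusted p = 0.00498). The general endoderm factor sox17a.L was at 111, 130.3 and 116 RPKM in the whole embryos and 81.3, 119 and 98.0 RPKM in the ventral half-embryos (-0.27 ± 0.14, adjusted p = 0.227) and was not called. Of these 18 calls, 8 were kept whichever 1 of the 6 libraries was left out, and the fit without the replicate block made 4 higher and 4 lower.

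Epidermal genes leaned upward, with few calls. Of 57 measured genes 8 were called higher and 3 lower, 41 differences were positive, and the median was 0.44. dlx2.S, a distal-less homeobox gene, was at 1.17, 3.07 and 1.82 RPKM in the whole embryos and 23.01, 25.6 and 24.1 RPKM in the ventral half-embryos (3.11 ± 0.40, adjusted p = 0.00133). The GATA3 model Xelaev18017847m went from 7.102, 4.06 and 4.42 RPKM to 20.3, 18.7 and 21.6 RPKM (GATA3 1.80 ± 0.35, adjusted p = 0.0091). epcam.L, an epithelial adhesion gene, rose by 0.66 ± 0.10 (adjusted p = 0.0029). The epidermal keratin krt12.S was at 325, 314 and 381 RPKM in the whole embryos and 542, 449 and 437 RPKM in the ventral half-embryos (0.48 ± 0.27, adjusted p = 0.27), and dlx3.S at 34.0, 23.7 and 19.3 RPKM in the whole embryos and 93.1, 48.4 and 56.1 RPKM in the ventral half-embryos (1.31 ± 0.41, adjusted p = 0.0595). Neither of the latter was called, although their groups did not overlap. The simple-epithelial keratin krt18.S fell (-0.84 ± 0.19, adjusted p = 0.0163). Whichever 1 of the 6 libraries was left out, 3 of the 11 calls were kept; the fit without the replicate block made 3 higher and 1 lower. Multiciliated cells clear mucus over the epidermis; of 17 genes of their programme 4 were called higher and 0 lower, and 16 differences were positive. Of 3 MCIDAS models, nearest to multicilin, which starts the programme, Xelaev18010956m was at 4.47, 2.98 and 1.78 RPKM in the whole embryos and 27.6, 16.4 and 12.1 RPKM in the ventral half-embryos (MCIDAS 2.25 ± 0.38, adjusted p = 0.00451). The models Xelaev18002015m (MCIDAS 1.29 ± 0.46, adjusted p = 0.0925) and Xelaev18008287m (MCIDAS 1.23 ± 0.51, adjusted p = 0.139) were not called. The cyclin gene ccno.L was at 11.6, 6.55 and 5.25 RPKM in the whole embryos and 36.5, 22.9 and 24.4 RPKM in the ventral half-embryos (1.75 ± 0.41, adjusted p = 0.0205). foxj1.L, the regulator of motile cilia, was at 8.74, 3.61 and 4.34 RPKM in the whole embryos and 30.4, 10.6 and 17.3 RPKM in the ventral half-embryos (1.60 ± 0.49, adjusted p = 0.0586). Of 10 ionocyte genes 1 was called higher and 1 lower, and foxi1.S, the ionocyte regulator, was at 21.0, 4.22 and 16.1 RPKM in the whole embryos and 26.6, 15.3 and 21.6 RPKM in the ventral half-embryos (0.79 ± 0.59, adjusted p = 0.415), with overlapping groups. Called shares were 19.3% for epidermal, 23.5% for multiciliated and 20% for ionocyte genes, beside 11.1% of all genes. Only 1 multiciliated call and 0 ionocyte calls were kept whichever 1 of the 6 libraries was left out. A single omitted library cost the call of krt18.S without ventral library 1 (adjusted p = 0.093), of ccno.L without ventral library 1, ventral library 3, whole-embryo library 2 or whole-embryo library 3 (adjusted p = 0.0507 to 0.107).

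**Figure D3:**
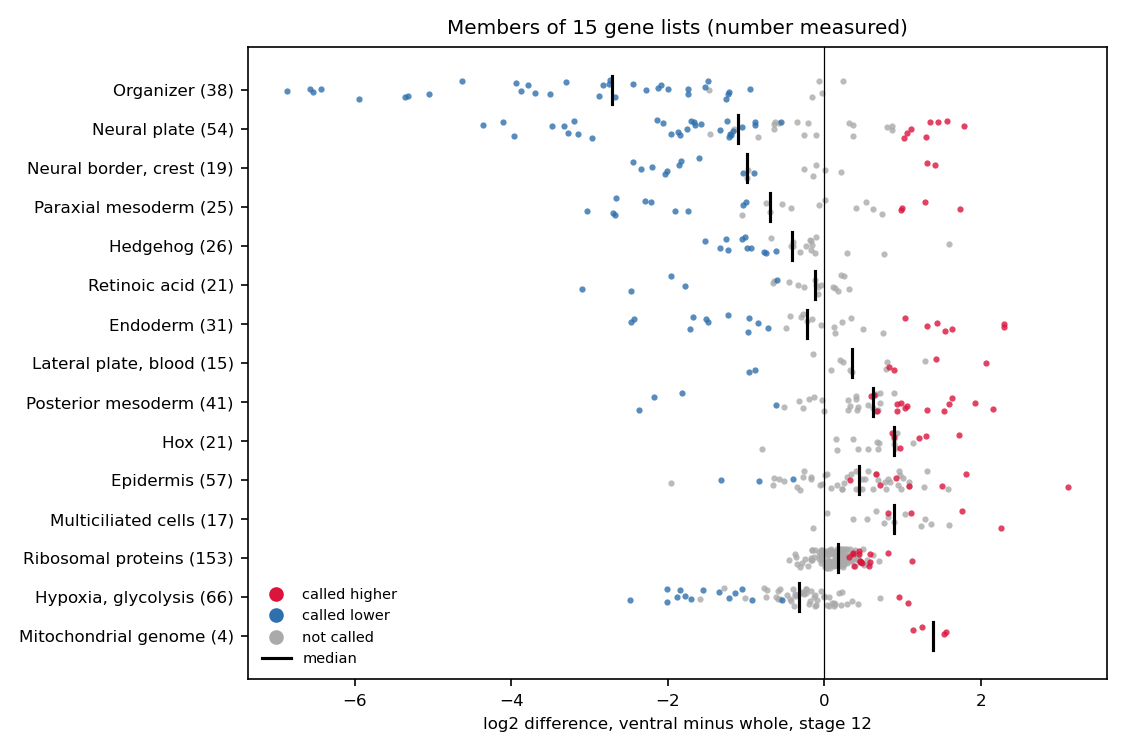
Log2 difference between ventral half-embryos and whole embryos at stage 12 for each measured member of 15 gene lists, with called members coloured and the list median as a black bar; the number measured stands beside each name. Organizer and neural plate medians lie at -2.71 and -1.11, and posterior mesoderm and multiciliated medians at 0.62 and 0.88.

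Signalling pathways other than BMP changed in part. Of 45 Notch genes 13 were called higher and 6 lower, and the glycosyltransferase gene lfng.L, which modulates Notch receptors, was at 29.1, 55.5 and 36.8 RPKM in the whole embryos and 11.3, 12.2 and 10.37 RPKM in the ventral half-embryos (-1.71 ± 0.23, adjusted p = 0.00167). The Notch target hey1.S was at 1.41, 3.17 and 2.36 RPKM in the whole embryos and 6.25, 8.89 and 6.21 RPKM in the ventral half-embryos (1.31 ± 0.22, adjusted p = 0.00462). Of 37 Wnt targets and inhibitors 1 was called higher and 10 lower, and the secreted inhibitors described above led the lower ones, together with sfrp1.S (-1.91 ± 0.35, adjusted p = 0.00676). sfrp1.S also differed from whole embryos by -1.24 ± 0.35 in dorsal and -1.56 ± 0.305 in sagittal half-embryos (ventral minus dorsal adjusted p = 0.422). nkd1.S was called lower (-1.32 ± 0.305, adjusted p = 0.0188). nkd1.L and the copies of axin2, lef1, sp5, sp5l, notum and znrf3 were not called. The target that rose was APCDD1 (Xelaev18033587m), nearest to a membrane Wnt inhibitor (1.201 ± 0.31, adjusted p = 0.0287), whose other model Xelaev18031847m was not called (APCDD1 -0.17 ± 0.21, adjusted p = 0.648). Of 34 genes of FGF signalling 5 were called higher and 9 lower. The receptor fgfr4.S, expressed in the anterior neural plate, went from 67.8, 67.7 and 74.0 RPKM to 28.0, 36.1 and 35.4 RPKM (-1.06 ± 0.15, adjusted p = 0.00203), and flrt3.L, a membrane modulator of FGF signalling, rose (0.81 ± 0.15, adjusted p = 0.00711). Of 21 retinoic acid genes 0 were called higher and 5 lower. aldh1a2.L, the enzyme that makes retinoic acid in the mesoderm, was at 22.7, 35.2 and 37.6 RPKM in the whole embryos and 3.59, 11.1 and 9.096 RPKM in the ventral half-embryos (-1.96 ± 0.30, adjusted p = 0.00271). Its other copy, aldh1a2.S, was not called (-0.26 ± 0.18, adjusted p = 0.366). Of 26 Hedgehog genes 0 were called higher and 11 lower, and none of those calls was kept whichever library was left out (0 of 11). Sonic hedgehog, made by notochord and floor plate, was listed at 0 in all ventral libraries as shh.L, against 2.06, 1.54 and 2.089 RPKM in whole embryos (-1.53 ± 0.39, adjusted p = 0.0287). Called shares were 42.2% for Notch, 29.7% for Wnt, 41.2% for FGF, 23.8% for retinoic acid and 42.3% for Hedgehog genes, beside 11.1% of all genes. Calls kept whichever 1 library was left out numbered 8 for Notch, 5 for Wnt, 3 for FGF and 2 for retinoic acid genes. Without the replicate block, calls were 8 higher and 5 lower for Notch, 1 and 3 for FGF, 0 and 3 for retinoic acid and 0 and 2 for Hedgehog genes. Leaving out 1 library ended the call of APCDD1 without ventral library 1, ventral library 3, whole-embryo library 1 or whole-embryo library 3 (adjusted p = 0.0895 to 0.146), of shh.L without ventral library 1, ventral library 2, ventral library 3, whole-embryo library 1 or whole-embryo library 3 (adjusted p = 0.0584 to 0.133).

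Some of the largest differences from whole embryos were as large in the other half-embryos. Dorsal half-embryos and sagittal half-embryos (the mean of left and right) were cut and cultured in the same way and share the whole-embryo libraries, so ventral half-embryos were tested against them directly. Over all genes, 5.76% were called between ventral and dorsal half-embryos and 3.1% between ventral and sagittal half-embryos. Of the 751 genes higher in ventral half-embryos than in whole embryos, 178 were also called higher than in dorsal half-embryos (background 2.86%), 129 higher than in sagittal half-embryos (background 1.35%), 113 higher than in both and 557 different from neither. Of the 984 lower genes, 301 were lower than in dorsal half-embryos (background 2.9%), 230 lower than in sagittal half-embryos (background 1.76%), 218 lower than in both, and 669 different from neither. These comparisons share the 3 ventral libraries with the one that chose the genes. An overlap above the background was therefore favoured in advance, and its size was not tested. A missing call against another half-embryo does not show that the half-embryos were alike.

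Genes of the dorsal-ventral axis stood among those that differed between half-embryos. In the organizer list 33 of 38 genes were called lower than in dorsal half-embryos and 28 lower than in sagittal half-embryos. For BMP targets, 17 of 31 were called higher than in dorsal half-embryos and 16 higher than in sagittal half-embryos. Relative to whole embryos, szl.L differed by 3.62 ± 0.57 in ventral, -2.26 ± 0.57 in dorsal and -0.48 ± 0.49 in sagittal half-embryos. The sagittal mean averages unlike libraries. szl.L was at 64.8 RPKM in left (standard deviation 83.48) and 12.89 RPKM in right half-embryos (10.3). CHRD (Xelaev18027420m) was at 87.96 RPKM in left (standard deviation 69.83) and 136.5 RPKM in right half-embryos (35.32). The cause of this spread was not tested. The ventral-minus-dorsal difference of szl.L was 5.89 ± 0.57 (adjusted p = 0.000607) and the ventral-minus-sagittal difference 4.11 ± 0.49 (adjusted p = 0.0011). Although not called against whole embryos, bmp4.L and bmp4.S were called higher than in dorsal half-embryos (0.914 ± 0.135 and 0.829 ± 0.127, adjusted p = 0.0018 and 0.00232). Both were also called higher than in sagittal half-embryos (0.496 ± 0.117 and 0.513 ± 0.11, adjusted p = 0.0394 and 0.0248). In the epidermis list 30 of 57 genes were called higher in ventral than in dorsal half-embryos, beside the 8 called higher than in whole embryos. The ventral-minus-dorsal difference was 3.98 ± 0.38 for MCIDAS (Xelaev18010956m), 3.23 ± 0.51 for MCIDAS (Xelaev18008287m) and 2.15 ± 0.46 for MCIDAS (Xelaev18002015m) (adjusted p = 0.000607, 0.0026 and 0.0143).

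Some other genes moved in every kind of half-embryo. The IRG1 model Xelaev18038693m, nearest to the human enzyme that makes itaconate, was at 1.26, 8.04 and 7.46 RPKM in the whole embryos and 209.9, 53.7 and 250.2 RPKM in the ventral half-embryos (IRG1 4.68 ± 0.62, adjusted p = 0.0015), the largest rise among called genes with a symbol. Relative to whole embryos it differed by 4.76 ± 0.62 in dorsal and 4.33 ± 0.54 in sagittal half-embryos, and ventral minus dorsal was -0.08 ± 0.62 (adjusted p = 0.986). Ventral library 2 was the lowest of the ventral libraries, still above every whole-embryo library. The other IRG1 models, Xelaev18038707m and Xelaev18038702m, changed by 4.46 ± 0.60 and 4.26 ± 0.64, and PHYHD1 (Xelaev18038704m), nearest to a dioxygenase, by 3.54 ± 0.37. How alike these models are in sequence was not tested, and whether the counting divided reads among them is not given, so they are not counted as independent measurements. azin2.1, nearest to a regulator of polyamine synthesis, was at 159, 137 and 117 RPKM in the whole embryos and 428, 536 and 496 RPKM in the ventral half-embryos (1.82 ± 0.16, adjusted p = 0.000433), with 1.57 ± 0.16 in dorsal and 1.88 ± 0.14 in sagittal half-embryos. The transporter gene slc16a6-like.L went from 0.321, 0.602 and 0.230 RPKM to 6.67, 6.76 and 12.9 RPKM (2.77 ± 0.28, adjusted p = 0.000433; ventral minus dorsal -0.46 ± 0.28). The 4 measured genes of the mitochondrial genome were called higher, with ND5 at 270.5, 375 and 604 RPKM in the whole embryos and 1137, 732 and 1777 RPKM in the ventral half-embryos (1.53 ± 0.21, adjusted p = 0.00167). The ND5 difference was 1.57 ± 0.21 in dorsal and 1.56 ± 0.18 in sagittal half-embryos, and without the replicate block 0 of the 4 were called. Dropping a single library removed the call of ATP6 without ventral library 1, ventral library 3 or whole-embryo library 3 (adjusted p = 0.054 to 0.0949), of ND6 without ventral library 1, ventral library 2, ventral library 3, whole-embryo library 1 or whole-embryo library 3 (adjusted p = 0.0521 to 0.113).

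Some hypoxia genes fell, and the fitted differences of several were of like size in the other half-embryos. Of 66 hypoxia and glycolysis genes 2 were called higher and 14 lower. egln3.L, an oxygen-sensing prolyl hydroxylase, was at 20.9, 32.6 and 29.5 RPKM in the whole embryos and 6.76, 7.59 and 8.63 RPKM in the ventral half-embryos (-1.71 ± 0.17, adjusted p = 0.000433), and differed by -1.71 ± 0.17 in dorsal and -1.66 ± 0.15 in sagittal half-embryos. The ANGPTL5 model Xelaev18017477m, nearest to an angiopoietin-like protein, went from 33.8, 14.6 and 20.9 RPKM to 0, 0 and 0.619 RPKM (-4.28 ± 0.38, adjusted p = 0.000433), with -3.80 ± 0.38 in dorsal and -3.70 ± 0.33 in sagittal half-embryos, and ANGPTL5 (Xelaev18021227m) was not called (-0.48 ± 0.20, adjusted p = 0.153). The copies of pfkfb3 and pdk4.S were also lower in ventral than in dorsal half-embryos. pfkfb3.L, an activator of glycolysis, was at 100.5, 94.9 and 107 RPKM in the whole embryos and 26.3, 27.7 and 27.9 RPKM in the ventral half-embryos (-1.85 ± 0.18, adjusted p = 0.000433; ventral minus dorsal -1.61 ± 0.18, adjusted p = 0.000668). pdk4.S, a kinase that inhibits pyruvate dehydrogenase, went from 44.8, 47.0 and 36.7 RPKM to 6.91, 12.46 and 10.8 RPKM (-2.01 ± 0.28, adjusted p = 0.00173; ventral minus dorsal -2.16 ± 0.28, adjusted p = 0.00101). Of these 16 calls, 9 were kept whichever 1 of the 6 libraries was left out, and the fit without the replicate block made 0 higher and 10 lower.

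**Figure D4:**
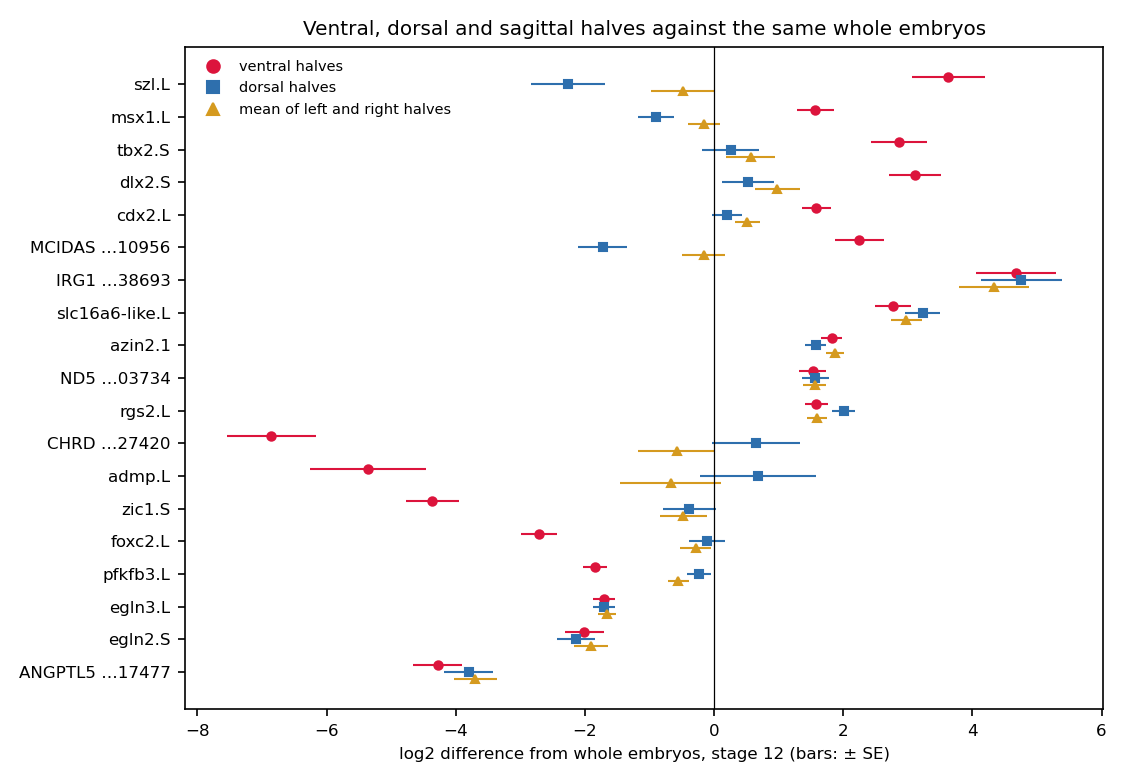
Log2 difference from the same 3 whole-embryo libraries at stage 12 for 19 genes in ventral (red circles), dorsal (blue squares) and sagittal half-embryos (yellow triangles), with bars of 1 standard error. The 3 kinds of half-embryo lie close together for IRG1, azin2.1, ND5 and egln3.L, and the ventral half-embryos stand apart for szl.L, chordin, zic1.S and foxc2.L.

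Lists of general cell state were read next. Of 58 wound and immediate-early genes 11 were called higher and 2 lower, among them rgs2.L, a regulator of G protein signalling, at 2.24, 4.202 and 4.82 RPKM in the whole embryos and 10.01, 10.8 and 19.4 RPKM in the ventral half-embryos (1.58 ± 0.17, adjusted p = 0.000655) and the stress gene gadd45a.S (0.94 ± 0.11, adjusted p = 0.000923). The gadd45a.S difference was 0.83 ± 0.11 in dorsal and 0.76 ± 0.10 in sagittal half-embryos (ventral minus dorsal 0.11 ± 0.11, adjusted p = 0.774). The proto-oncogene MYC rose as Xelaev18032361m, at 30.1, 42.5 and 26.5 RPKM in the whole embryos and 132, 102 and 117 RPKM in the ventral half-embryos (MYC 1.81 ± 0.22, adjusted p = 0.000977; ventral minus dorsal 1.33 ± 0.22, adjusted p = 0.00346). The other MYC model, Xelaev18034007m, also rose (MYC 1.25 ± 0.19, adjusted p = 0.00271), with 1.01 ± 0.19 in dorsal half-embryos and a ventral-minus-dorsal difference of 0.23 ± 0.19 (adjusted p = 0.689). Of 27 pluripotency genes 6 were called higher and 6 lower, with prdm14.S lowest, from 18.8, 15.2 and 15.6 RPKM to 0, 0.135 and 0.182 RPKM (-3.98 ± 0.58, adjusted p = 0.00219). The lower pluripotency calls included SOX3 (Xelaev18042169m), sox2.1 and foxd3.L, already described with the neural plate and neural border genes. The higher ones were the MYC models just described, the TFCP2L1 models, foxh1.L and POU5F1 (Xelaev18038233m) (0.47 ± 0.09, adjusted p = 0.0085). The other POU5F1 models were not called. Of 40 chaperone genes 8 were called higher and 0 lower, of which 0 were kept whichever library was left out and 1 was called without the replicate block. Of 153 ribosomal protein genes 15 were called higher and 0 lower, 9.80% against 11.1% of all genes, with 3 called without the block. Calls among 79 cell cycle genes (5 higher and 6 lower), 93 histone genes (6 and 3), 37 p53 and apoptosis genes (3 and 1) and 14 left-right genes (1 and 1) came to 13.9%, 9.68%, 10.8% and 14.3%, near the share over all genes. Of 21 polyamine and purine genes 6 were called higher and 1 lower, and of 19 germ plasm genes 1 was called higher and 4 lower. The higher germ plasm call was wnt11b.L, described above with posterior mesoderm, and the lower ones included otx1.L and otx1.S. Called shares were 22.4% for wound, 44.4% for pluripotency and 20% for chaperone genes. They were 33.3% for polyamine and purine and 26.3% for germ plasm genes, beside 11.1% of all genes. Calls kept whichever 1 library was left out numbered 7 for wound, 7 for pluripotency, 3 for polyamine and purine and 2 for germ plasm genes. Against dorsal half-embryos, where 5.76% of all genes were called, 0 chaperone genes were called higher and 0 lower. That comparison called 0 polyamine and purine genes higher and 2 lower, and 8 wound genes higher and 6 lower. In bulk RNA, fewer cells of a type and less RNA per cell cannot be told apart, which holds for every level given here.

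The ventral difference was also compared between early and late gastrula, with the same difference at stage 10.5 taken within its own table. Of 14948 genes in both tables, 78 (0.522%) changed their ventral difference, 36 upward and 42 downward. Chordin was not among them: the model Xelaev18027420m differed by -5.79 ± 0.41 at stage 10.5 and by -6.86 ± 0.69 at stage 12 (CHRD adjusted p of the change = 0.631). Its ventral mean was already near 0 at stage 10.5 (0.169 RPKM, and 0.101 RPKM at stage 12), so the test could hardly show a further fall. The whole-embryo mean went from 63.1 to 128.6 RPKM. The differences of some neural plate genes became more negative. irx2.L differed by -1.002 ± 0.24 early and -4.11 ± 0.41 late, a change of -3.11 ± 0.52 (adjusted p = 0.0122), and zic1.S went from -1.42 ± 0.26 to -4.36 ± 0.41, a change of -2.94 ± 0.53 (adjusted p = 0.0195). In paraxial mesoderm, foxc2.L went from 0.26 ± 0.30 to -2.71 ± 0.28 (adjusted p of the change = 0.00728), and myod1.L from 0.57 ± 0.22 to -1.91 ± 0.25 (adjusted p = 0.00728). myod1.S was higher in ventral half-embryos at stage 10.5, where 5.93% of all genes were called higher, by 2.04 ± 0.36, and stood at -0.70 ± 0.26 at stage 12. Whole-embryo means rose between the stages, from 7.51 to 29.98 RPKM for foxc2.L, 2.25 to 13.2 for myod1.L and 6.77 to 49.9 for myod1.S. Ventral means went from 9.40 to 4.01 RPKM for foxc2.L, 4.07 to 2.89 for myod1.L and 26.9 to 29.8 for myod1.S. The difference of mix1.L took the opposite course, 0.15 ± 0.23 early and 2.30 ± 0.37 late (adjusted p = 0.0456). That of its homeobox relative, the MIXL1 model Xelaev18026295m, went from -0.04 ± 0.28 to 2.29 ± 0.34 (MIXL1 adjusted p = 0.0302). The mean levels of both genes were lower at stage 12 in both groups. For mix1.L they went from 121 to 11.9 RPKM in whole embryos and from 135 to 63.1 RPKM in ventral half-embryos. For the MIXL1 model they went from 30.9 to 2.37 RPKM in whole embryos and from 31.3 to 16.0 RPKM in ventral half-embryos. Without the replicate block this test made 1 upward and 8 downward calls.

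**Figure D5:**
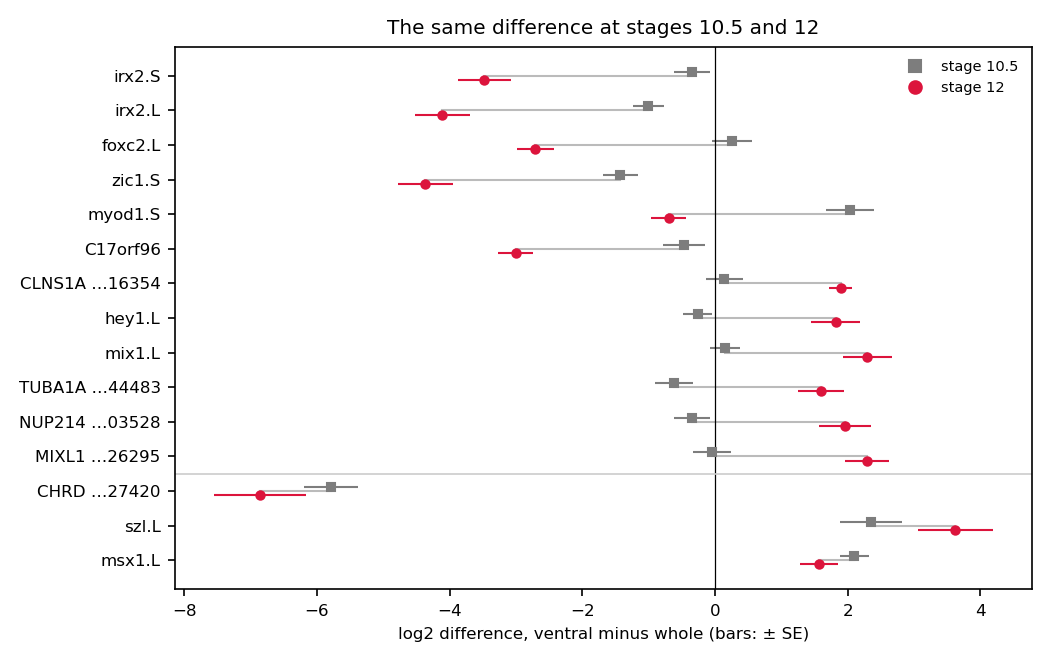
Log2 difference between ventral half-embryos and whole embryos at stage 10.5 (grey squares) and stage 12 (red circles), with bars of 1 standard error, for the 12 genes chosen by the largest called change and, below the line, for chordin, szl.L and msx1.L. The differences of Iroquois, Foxc and Zic genes moved down between the stages and those of Mix-type genes up.

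Homeologous copies were compared by sign. Of 2702 pairs of .L and .S copies listed, 147 had both copies called, 143 of these in the same direction. Of 419 pairs with 1 copy called, 322 had the same sign in the other copy, with no test of these shares. Copies share sequence, and reads could have been assigned to the wrong one, so they are not independent measurements. frzb, with frzb.L at -2.28 ± 0.42 and frzb.S at -0.03 ± 0.14, and foxa2, with foxa2.S at -1.23 ± 0.26 and foxa2.L at -0.15 ± 0.26, are pairs of which 1 copy was called. A single omitted library cost the call of foxa2.S without ventral library 3 or whole-embryo library 3 (adjusted p = 0.0553 to 0.0625).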

How the data were processed

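Poly(A) RNA of whole embryos and half-embryos was read as single ends from TruSeq V2 libraries, a kit that keeps no strand, per the labels' protocols, so reads of overlapping or antisense genes cannot be told apart. The authors deposited RPKM, reads scaled by gene length and library depth, for genes with an average above 1, on JGI9.1 laevis models with the closest human protein as symbol, per the file headers. TopHat2 2.09 and DESeq are listed in the submitters' processing notes, and the read counter is not given in the sources at hand. RPKM was tested as log2(RPKM + 1) with limma 3.58.1 (trend, two-sided) in R 4.3.3, all 15 stage 12 libraries in 1 fit with group means and the replicate number as a block. Calls used p-values adjusted by Benjamini-Hochberg over all 15596 genes, with 0.05 as the limit and no filter. The fit was tested on simulated data.

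The numbers pair the libraries: the labels name each control for its same-numbered half-embryos, and deviations from group means correlated at 0.275 to 0.578 within a number (30 pairs). Between numbers they correlated at -0.377 to -0.0837 (60 pairs). Deviations within a group sum to 0, so these negative values follow from the positive ones and are no further evidence. Whole reads were recovered from the RPKM steps for 100% of genes, within a relative tolerance of 5e-09 and up to a common factor per gene. They served for depth and for the chi-square between replicates, not for the calls. By these reads 1 RPKM corresponded to a median of 8.15 reads. Between replicates chi-square over its degrees of freedom was 6.5 to 10.1, more than sampling noise. The comparison, the lists and their members were chosen with earlier results of these data known. Genes named outside the lists are the 15 with the largest rise and the 15 with the largest fall among called genes with a symbol that had the same sign in all 3 pairs, and for the other tests the 6 largest called in each direction. Genes of a list were matched by symbol or by deposited human symbol. Alternatives were no block, only the 6 libraries, a pseudocount of 0.1, filters on low RPKM, upper-quartile and quantile scaling, no trend, and each library left out. No sequences or coordinates were used, and some counted genes are not reported here by name.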

Additional observations from a re-analysis of the deposited data

Results flagged for a closer look

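These 12 genes were singled out because their ventral-minus-whole difference itself differed between stage 10.5 and stage 12, by the test of that change in the fit of all 30 libraries (limma, Benjamini-Hochberg). They are the 6 with the largest upward and the 6 with the largest downward change among the called ones with a symbol. Each value below is the difference at stage 10.5, the difference at stage 12 and the change on the log2(RPKM + 1) scale.

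Upward, MIXL1 (Xelaev18026295m) changed from -0.04 ± 0.28 to 2.29 ± 0.34, by 2.34 ± 0.47 (adjusted p = 0.0302). mix1.L, the Mix-type relative, changed from 0.15 ± 0.23 to 2.30 ± 0.37, by 2.15 ± 0.47 (adjusted p = 0.0456). hey1.L, a Notch target, changed from -0.26 ± 0.22 to 1.82 ± 0.37, by 2.08 ± 0.45 (adjusted p = 0.0456). TUBA1A (Xelaev18044483m), nearest to a tubulin, changed from -0.62 ± 0.28 to 1.60 ± 0.34, by 2.22 ± 0.48 (adjusted p = 0.0456). NUP214 (Xelaev18003528m), nearest to a nuclear pore protein, changed from -0.34 ± 0.27 to 1.96 ± 0.40, by 2.30 ± 0.52 (adjusted p = 0.0491). CLNS1A (Xelaev18016354m) changed from 0.14 ± 0.28 to 1.90 ± 0.17, by 1.75 ± 0.34 (adjusted p = 0.0281).

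Downward, irx2.S changed from -0.35 ± 0.27 to -3.47 ± 0.40, by -3.13 ± 0.52 (adjusted p = 0.0122). Its copy irx2.L changed from -1.002 ± 0.24 to -4.11 ± 0.41, by -3.11 ± 0.52 (adjusted p = 0.0122). foxc2.L changed from 0.26 ± 0.30 to -2.71 ± 0.28, by -2.96 ± 0.44 (adjusted p = 0.00728). zic1.S changed from -1.42 ± 0.26 to -4.36 ± 0.41, by -2.94 ± 0.53 (adjusted p = 0.0195). myod1.S changed from 2.04 ± 0.36 to -0.70 ± 0.26, by -2.74 ± 0.48 (adjusted p = 0.0183). C17orf96 (Xetrov90024734m.S) changed from -0.47 ± 0.31 to -3.004 ± 0.27, by -2.53 ± 0.43 (adjusted p = 0.0153). The ventral-minus-dorsal differences at stage 12 of the NUP214 and CLNS1A models were near 0 (-0.14 ± 0.40 for NUP214 (Xelaev18003528m) and 0.03 ± 0.17 for CLNS1A (Xelaev18016354m)), and the Mix-type and Iroquois genes differed more (mix1.L 2.37 ± 0.37, irx2.L -3.96 ± 0.41). No cause was tested.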

How the results depend on the processing

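None of the genes followed singly changed direction under any alternative run. These genes leave out some of those named above. For example, gsc.L, sox2.1 and shh.L lost their call without ventral library 1 and are not among the lost calls counted below. Those counts therefore do not give the number of named genes that lost their call. Without the replicate block, 226 genes were called higher and 392 lower, all 618 of them among the 1735. With only the 6 ventral and whole libraries, 259 and 366 were called. Leaving out 1 library at a time gave 207 to 913 higher and 303 to 1402 lower. Upper-quartile scaling gave 913 higher and 850 lower, a share of 51.8% higher against 43.3%. The filters, quantile scaling, a pseudocount of 0.1 and no trend stayed within 1.5 times. Without the block, ventral against dorsal gave 273 higher, ventral against sagittal 111 higher, and the stage change 1 upward and 8 downward. Pairing by number rests on the labels, so the blocked fit is the one reported. Of the results for genes followed singly, 40 lost their call and 127 stayed the same without the block. These numbers were 34 and 97 without ventral library 1 and 29 and 102 without ventral library 3. The run without the block covered more results, and the cause was not tested. Depth limits the low genes: a gene had a median of 58 reads in a library, and 1 RPKM corresponded to a median of 8.15 reads.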

Other observations

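Large ventral-minus-dorsal differences were also found in single genes of secretory and ionocyte types. The MUC5B model Xelaev18024377m, nearest to a gel-forming mucin, was at 12.39, 7.96 and 10.1 RPKM in the whole embryos and 61.9, 27.5 and 14.2 RPKM in the ventral half-embryos and differed by 4.32 ± 0.52 from dorsal half-embryos (adjusted p = 0.000778), with 1.45 ± 0.52 against whole embryos (adjusted p = 0.0977). The OTOGL model, nearest to otogelin-like, differed by 4.16 ± 0.54 from dorsal half-embryos (adjusted p = 0.00102), and ventral library 1 was far above the other ventral libraries (109, 19.9 and 25.1 RPKM). foxi1.S, of ionocytes, differed by 3.86 ± 0.59 from dorsal half-embryos (adjusted p = 0.00222), and the UBP1 model, in the ionocyte list, by 3.17 ± 0.41 (adjusted p = 0.00101). Relative to whole embryos, foxi1.S differed by -3.07 ± 0.59 in dorsal half-embryos and by 0.79 ± 0.59, not called, in ventral ones. The UBP1 model differed from whole embryos by -1.60 ± 0.41 in dorsal and 1.57 ± 0.41 in ventral half-embryos. These ventral-minus-dorsal differences therefore include lower levels in dorsal half-embryos. In that list of 10 genes, 4 were called higher than in dorsal half-embryos and 0 lower, beside 2.86% of all genes called higher. Some other members were near 0 or negative and not called, such as ca12.L (0.10 ± 0.18) and SLC4A1 (-0.49 ± 0.25).

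Single genes of other functions also differed from whole embryos. gdf3.1, nearest to a TGF-beta family ligand, was at 42.4, 39.1 and 56.5 RPKM in the whole embryos and 88.3, 78.9 and 141 RPKM in the ventral half-embryos (1.11 ± 0.11, adjusted p = 0.000433), with 0.97 ± 0.11 in dorsal and 0.70 ± 0.10 in sagittal half-embryos. g0s2.L, nearest to an inhibitor of lipolysis, was at 2.08, 7.77 and 7.93 RPKM in the whole embryos and 18.4, 60.7 and 50.8 RPKM in the ventral half-embryos (2.67 ± 0.50, adjusted p = 0.00704), with 1.70 ± 0.50 in dorsal and 1.41 ± 0.43 in sagittal half-embryos. The RXRG model Xelaev18025612m, nearest to a retinoid X receptor, was at 21.6, 3.27 and 16.2 RPKM in the whole embryos and 0, 0.760 and 0.514 RPKM in the ventral half-embryos (-3.10 ± 0.48, adjusted p = 0.0029), with -2.15 ± 0.48 in dorsal and -2.43 ± 0.42 in sagittal half-embryos, and its whole-embryo library 2 lay far below the other two; RXRG (Xelaev18023606m) was not called (-0.64 ± 0.31, adjusted p = 0.207). rtn3.S, in the germ plasm list, went from 9.94, 10.2 and 13.3 RPKM to 4.13, 4.17 and 4.1 RPKM (-1.24 ± 0.21, adjusted p = 0.00475). Its other copy, rtn3.L, was not called (-0.07 ± 0.16, adjusted p = 0.809).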
